A study of Mus musculus with 6 samples.

Results

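Fatty acid oxidation and peroxisome assembly were examined in mouse kidneys near the end of gestation through 66 genes of 10 families, taken from the 11578 genes with a deposited value. The families were defined by gene symbol and were chosen with earlier results of these data known. They are the acyl-CoA oxidases (Acox), acyl-CoA dehydrogenases (Acad), 3-ketoacyl-CoA thiolases (Acaa), long-chain and medium-chain acyl-CoA synthetases (Acsl, Acsm), acyl-CoA thioesterases (Acot), carnitine palmitoyltransferases (Cpt), the hydratases, isomerases and hydroxyacyl-CoA dehydrogenases (Ech, Eci, Hadh, Ehhadh), the ABC transporters of subfamily D (Abcd) and the peroxins (Pex). The GENCODE annotation holds 77 coding genes with such symbols. The other 11, among them Acsm4, Acsm5, Acot5, Acot6, Acot12, Acsl6, Pex11a and Pex11g, had no row in the table and were not analysed here.

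The study compared kidneys carrying an SRM deletion with kidneys labelled wild type for Sall1, 3 of each taken at embryonic day 17 by the sample labels (the extraction protocol gives a slightly later stage). Sall1 is a zinc finger transcription factor of the developing kidney, and the SRM is the stretch of it that recruits the repressor complex NuRD. Strain, sex, zygosity, litter and the number of embryos behind a kidney are given in none of the sources used here. The p-values therefore reflect only how these 6 libraries spread, which may be technical. No treatment is labelled. Libraries are named by the number in their labels: mutants 328, 336 and 342 and wild types 330, 331 and 337.

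Fatty acids are activated to acyl-CoA by synthetases and enter mitochondria as carnitine esters made by Cpt1 and turned back by Cpt2. Each turn of the mitochondrial spiral uses an acyl-CoA dehydrogenase, a hydratase, a hydroxyacyl-CoA dehydrogenase and a thiolase. Peroxisomes run a parallel spiral for very long-chain, branched and bile acid side chains, in which an acyl-CoA oxidase takes the first step. Ehhadh is among the enzymes of the middle steps and the Acaa1 enzymes are among those of the last, for part of these substrates. Thioesterases release free acids from CoA, Abcd transporters carry substrates into peroxisomes and peroxins build the organelle. In the kidney these pathways are the main fuel supply of the proximal tubule, and many of their genes respond to the nuclear receptors PPARα and HNF4α.

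Values are the authors' scaled signal per gene and library. Totals lay between 555147910 and 559251769, and the read depth behind them is unknown. The values of mutant 336 and wild types 331 and 337 fell on visible grids with spacings of 1.79, 2.23 and 3.42, so by this estimate mutant 336 was read 1.91 times and wild type 331 1.53 times as deeply as wild type 337. In the other 3 libraries the periodicity of the values was weak (0.1004 to 0.139, against 0.562 to 0.866), and they were taken as a class of finer spacing. On the first principal component, which held 60.0% of the variance, wild types 331 and 337 stood at 36.4 and 46.0 and the other 4 libraries, wild type 330 included, between -30.4 and -13.3. Wild type 330 therefore lay with the mutants on this component. Its log2 signal was nearer to the mutant mean than to the mean of wild types 331 and 337 for 47 of the 66 genes (71.2%) and for 75.8% of all genes. What was called without this library is given beside the count over all members.

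The promoters of 3 genes that were higher in mutants, Acsm1, Acox2 and Acot3, are shown with that of Hadha, a core mitochondrial enzyme whose groups overlapped, because the windows look unlike each other. Each holds 250 bases before and 50 after a RefSeq transcription start (GRCm38.p6), and the first window listed was taken where a gene had several. Capitals mark AGGTCA, the core element that PPARα and HNF4α bind as direct repeats, and GGGCGG, the GC box of Sp1, each on either strand, and the letters of the motifs did not overlap.
Acsm1, chr7:119617562-119617861, + strand: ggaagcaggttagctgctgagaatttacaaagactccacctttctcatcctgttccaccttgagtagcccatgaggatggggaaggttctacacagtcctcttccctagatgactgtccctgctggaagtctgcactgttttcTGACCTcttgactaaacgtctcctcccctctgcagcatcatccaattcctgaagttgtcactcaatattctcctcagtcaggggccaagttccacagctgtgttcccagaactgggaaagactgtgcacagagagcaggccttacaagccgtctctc
Acox2, chr14:8258970-8259269, - strand: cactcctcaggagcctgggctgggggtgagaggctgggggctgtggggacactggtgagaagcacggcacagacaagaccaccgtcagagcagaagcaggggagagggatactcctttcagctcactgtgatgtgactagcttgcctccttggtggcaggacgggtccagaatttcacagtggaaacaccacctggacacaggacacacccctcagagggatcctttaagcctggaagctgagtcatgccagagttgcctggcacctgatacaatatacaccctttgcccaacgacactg
Acot3, chr12:84051894-84052193, + strand: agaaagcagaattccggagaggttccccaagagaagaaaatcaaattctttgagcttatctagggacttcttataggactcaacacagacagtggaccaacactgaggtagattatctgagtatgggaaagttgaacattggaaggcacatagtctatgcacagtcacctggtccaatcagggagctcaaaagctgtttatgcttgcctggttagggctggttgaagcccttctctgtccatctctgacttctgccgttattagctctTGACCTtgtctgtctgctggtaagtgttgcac
Hadha, chr5:30154931-30155230, - strand: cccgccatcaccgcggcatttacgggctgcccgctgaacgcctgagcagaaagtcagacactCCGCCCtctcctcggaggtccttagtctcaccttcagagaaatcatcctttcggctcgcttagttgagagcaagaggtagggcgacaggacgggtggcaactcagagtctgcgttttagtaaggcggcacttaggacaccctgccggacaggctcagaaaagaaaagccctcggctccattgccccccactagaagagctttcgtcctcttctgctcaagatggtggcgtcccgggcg
CpG dinucleotides numbered 2 in the Acsm1 window, 4 in that of Acox2, 2 in that of Acot3 and 20 in that of Hadha.

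A promoter window was found for 53 of the 66 genes. AGGTCA was present in 9 of these 53, namely Acadm, Acadvl, Acot3, Acot4, Acsm1, Cpt1a, Cpt1c, Echdc3 and Echs1. It was in 4335 of all 27025 promoter windows. These windows outnumber the 11578 genes with a deposited value, so this background differs from that of the other comparisons. A direct repeat of it, AGGTCA followed by any 1 base and AGGTCA again, was in 0 of the 53 and in 0.0444% of all windows. GGGCGG was in 35 of the 53 and in 35.9% of all windows. The median number of CpGs was 14 for the 53 genes and 7 for all 27025 windows. Among the 53, the fewest CpGs stood in the windows of Acsm2, Acsm1 and Acot3, with 1, 2 and 2, followed by Acaa1b and Acox2 with 4 each. The 14 windows of genes whose mutants all stood above the wild types held from 1 to 45 CpGs (median 9.5), with Acad10 at 45. The 36 windows of genes whose groups overlapped held 4 to 45 (median 16). The 3 of genes whose mutants all stood below held 8 to 33 (median 30). These counts describe the windows and were not tested.

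Of the 3 medium-chain acyl-CoA synthetases 1 passed the threshold, as did a peroxisomal oxidase. Acsm1, a mitochondrial enzyme that activates medium-chain fatty acids, rose in mutants to 32997 ± 7710 (SD, n = 3), compared with 11667 ± 2206 (SD, n = 3) in wild types. Acox2, the peroxisomal oxidase of bile acid intermediates and branched fatty acids, rose to 15333 ± 2063 (SD, n = 3), compared with 4313 ± 1890 (SD, n = 3). These were the 2 of 66 genes past the threshold of limma (Benjamini-Hochberg adjusted p under 0.05 over all 11578 genes), both higher, where 0.285% of all genes passed in either direction and 0.199% passed as higher. No gene of the families passed as lower in limma, where 0.0864% of all genes did, with 7 at an unadjusted p under 0.05.

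Acsm1 (chr7:119607026-119662515, mm10) had a signal of 24351, 35481 and 39158 in mutants 328, 336 and 342, whereas wild types 330, 331 and 337 had 10127, 10680 and 14195. The lowest mutant stood above the highest wild type, and wild type 330 was the lowest of all. The log2 difference was 1.49 (SE 0.24, limma adjusted p = 0.0227), a 2.83-fold ratio of means. It was 1.45 after the dependence of each library on transcript length and GC content had been removed (limma adjusted p = 0.0177) and 1.57 with spacing class as a covariate (limma adjusted p = 0.00814). Over 13 alternative fits it lay between 1.22 and 1.69, with limma adjusted p from 0.00385 to 0.202 and 8 of 13 past the threshold.

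Acox2 (chr14:8225511-8259353) had 15647, 13131 and 17220 in mutants 328, 336 and 342, whereas wild types 330, 331 and 337 had 6237, 4241 and 2460. The groups did not overlap, and the mutants were 3.56-fold higher by the ratio of means. The log2 difference was 1.92 (SE 0.34, limma adjusted p = 0.0433). It was 1.81 without length and GC content (limma adjusted p = 0.0371) and 1.71 with spacing class as a covariate (limma adjusted p = 0.0278). Its mean signal fell below the alternative minimum of 10000, so 12 alternative fits held it, with log2 differences between 1.57 and 2.24, limma adjusted p from 0.00103 to 0.274 and 6 of 12 past the threshold. Leaving out any mutant or wild type 331 or 337 ended the call for Acox2. The same libraries except wild type 337 ended it for Acsm1.

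Acox3 had a smaller difference than Acox2, and the gap between them was not tested. Acox3, an oxidase of branched chains, had 23293, 26906 and 21423 in mutants against 20749, 15257 and 12457 in wild types, which do not overlap. Its log2 difference was 0.59 (SE 0.23, limma adjusted p = 0.243). Per kilobase of the longest annotated coding transcript, the mean signal was 5034 for Acox3 and 3379 for Acox2.

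The 3 listed Acsm genes lie within 233.2 kb of chromosome 7 (chr7:119554340-119787513), and in each all mutants stood above all wild types. Acsm2, the most abundant of them at a mean signal of 15003 per kilobase, had 138599, 117791 and 126385 in mutants against 61687, 72869 and 89193 in wild types. Its log2 difference was 0.79 (SE 0.18, limma adjusted p = 0.1501). Without length and GC content the value was 1.08 and the gene passed (limma adjusted p = 0.0152). Acsm3 had 2886, 8855 and 7694 in mutants against 579, 2060 and 0 in wild types 330, 331 and 337. Wild type 337, the library of coarsest spacing, lists it at 0, so its log2 difference of 5.78 (SE 2.19, limma adjusted p = 0.243) depends on the pseudocount. With a pseudocount of 1000 the difference was 2.04 (limma adjusted p = 0.132). Wild type 330 was the lowest of the 6 libraries for Acsm1 and Acsm2. For Acsm3, at 579, it lay between the other wild types and below every mutant. Its log2 signal for Acsm3 still counted as nearer to the mutant mean, because the listed 0 lowers the log2 mean of wild types 331 and 337.

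**Figure D1:**
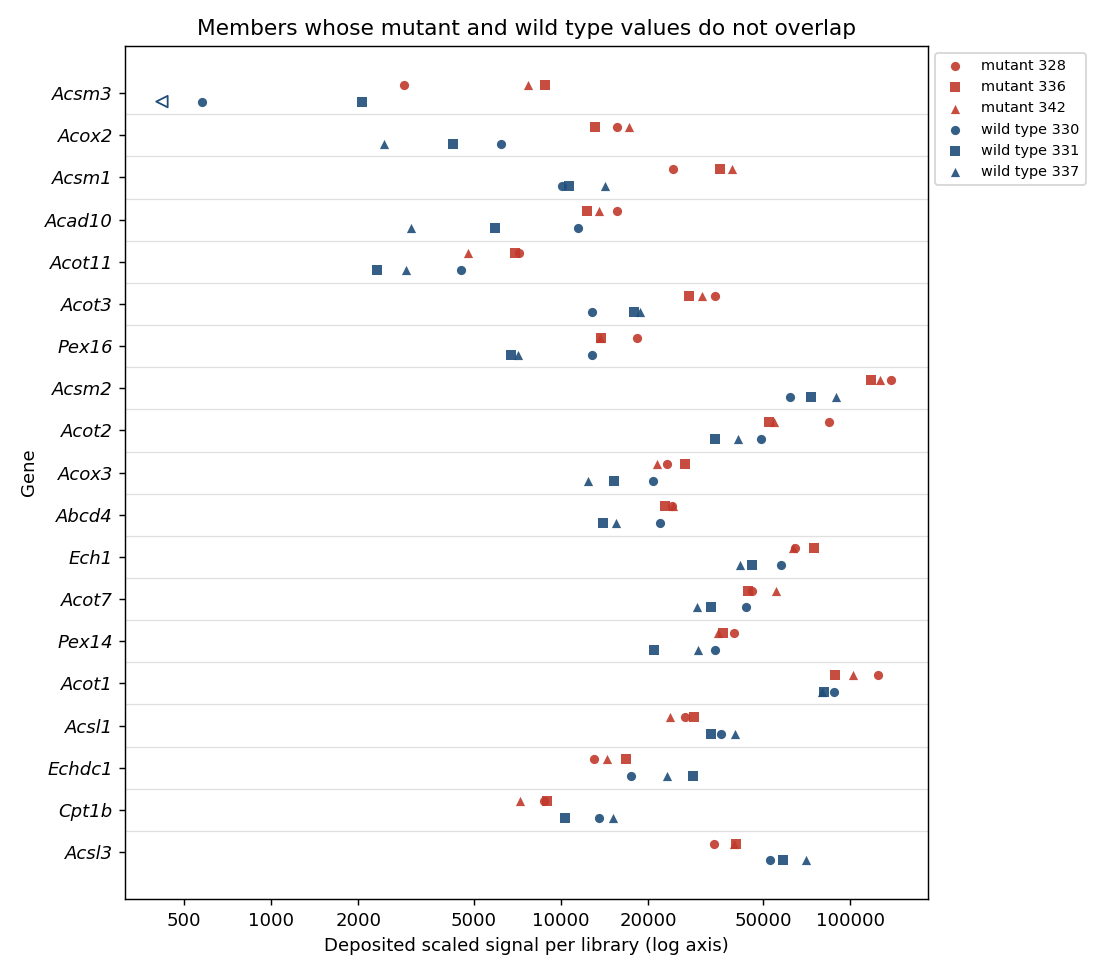
Scaled signal in each library (horizontal log axis) for the 19 genes whose 3 mutant values (red, upper row of each gene) and 3 wild type values (blue, lower row) do not overlap, sorted by log2 difference. The 15 genes from Acsm3 to Acot1 are higher in mutants and the 4 from Acsl1 to Acsl3 lower; the open triangle marks the listed 0 of Acsm3 in wild type 337, drawn at the left edge.

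Across all 66 genes, 19 had groups that did not overlap, 15 higher and 4 lower in mutants, as the plot of signal by library shows. Among all genes 19.5% had such groups, 11.1% higher and 8.42% lower, against 22.7% and 6.06% of the 66. At an unadjusted limma p under 0.05 there were 15 higher and 7 lower genes, or 33.3% of the 66, against 19% of all genes, 10.5% higher and 8.51% lower. The median log2 difference of the 66 was 0.04, near the 0.02 of all genes, with 37 genes above 0 and 29 below. Of the 66, 10 had a p under 0.05, 7 higher and 3 lower, in the authors' deposited table, against 8.71% of all genes. Without wild type 330, 18 of the 66 were called higher and 7 lower in limma, 25 in all, where 26.7% of all genes were called. The 7 lower were Abcd2 (-1.46 on the log2 scale), Hadhb (-0.93), Echdc1 (-0.81), Acsl3 (-0.76), Pex3, Acot10 and Acsl4. The 18 higher were Acsm1, Acsm2 (0.66), Acsm3, Acox2, Acox3 (0.79), Acot2 (0.73), Acot3 (0.74), Acot4 (1.68), Acot7 (0.62), Acot11 (1.26), Acaa1a, Acaa1b (0.81), Acad10 (1.70), Ech1 (0.63), Abcd4 (0.70), Pex5, Pex16 (1.12) and Pex19 (0.51). Of the core mitochondrial enzymes Hadhb was thus among the 7 lower, whereas Hadha, Acadm and Cpt1a were not called. Of the peroxisomal oxidation enzymes Acox2, Acox3, Acaa1a, Acaa1b and Ech1 were among the 18 higher, whereas Ehhadh, Eci2 and Eci3 were not called. For this fit the share of all genes is given only over both directions, and length and GC content were not removed. Over all libraries, that removal took Acaa1a from 0.47 to 0.07 and Acaa1b from 0.53 to 0.16.

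**Figure D2:**
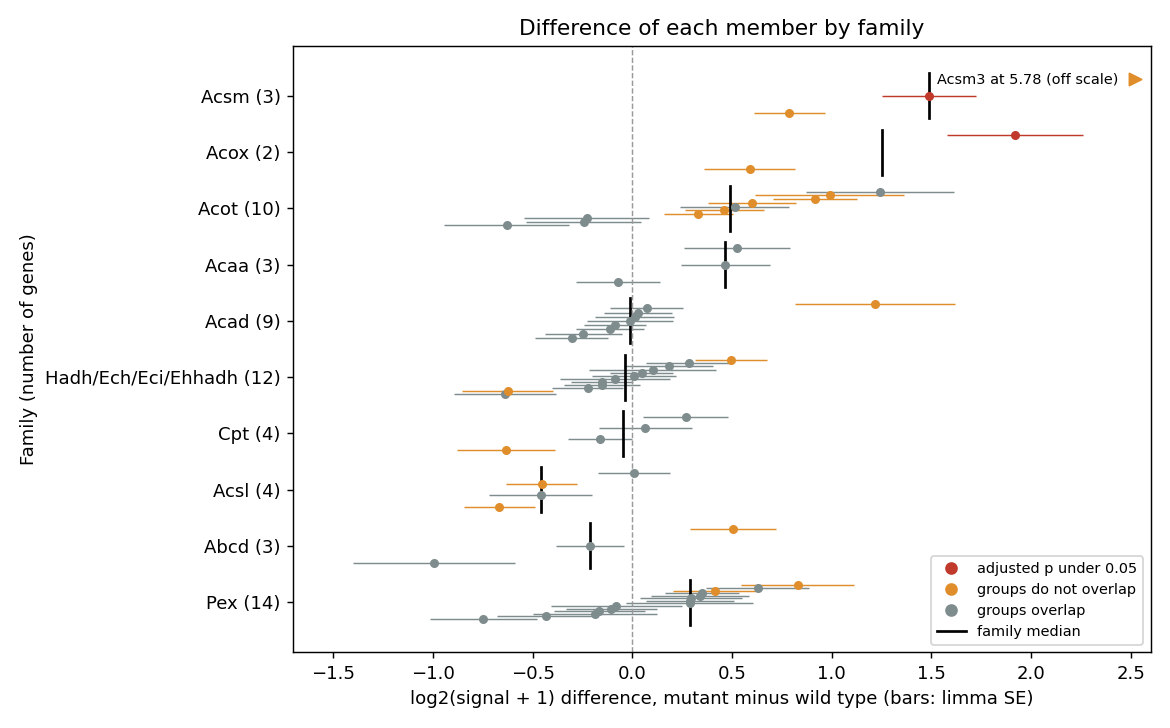
Difference in log2(signal + 1), mutant minus wild type, for each gene by family (horizontal axis, bars are the limma SE, n = 3 in each group), with the median of the genes drawn as a black line; 2 of the 66 are not drawn. The Acsm, Acox, Acot and Acaa medians lie above 0 and the Acsl median below, while the medians of Acad, of Hadh/Ech/Eci/Ehhadh and of Cpt lie between -0.05 and -0.01.

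Acyl-CoA thioesterases were the family with most members by count whose groups lay apart, though by share 3 of 3 Acsm and 2 of 3 Acox genes exceeded them. Of 10 Acot genes 7 had a positive log2 difference and 5 had mutant values entirely above wild type, where 11.1% of all genes did. In limma 0 passed and 5 had an unadjusted p under 0.05, all higher, where 10.5% of all genes were higher at that p. The family median was 0.49, and 0.22 without length and GC content. Acot1 (cytosolic), Acot2 (mitochondrial), Acot3 and Acot4 (both peroxisomal) lie within 72.5 kb of chromosome 12 (chr12:83987861-84060402), and all 4 had positive differences.

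Acot3 had 34167, 27749 and 30659 in mutants against 12812, 17871 and 18848 in wild types 330, 331 and 337. Here too the groups were apart and wild type 330 was the lowest library. The log2 difference was 0.92 (SE 0.21, limma adjusted p = 0.155), and 0.94 without length and GC content (limma adjusted p = 0.0646). Acot4 had 17350, 9893 and 14404 in mutants against 10391, 4015 and 4451 in wild types. Wild type 330 stood above mutant 336 for this gene, so the groups overlapped, and the log2 difference was 1.24 (SE 0.37, limma adjusted p = 0.231). Acot2 had 84234, 52524 and 54323 in mutants against 49146, 34063 and 41076 in wild types (difference of 0.60 on the log2 scale, SE 0.22). Acot1, the most abundant thioesterase at a mean signal of 41315 per kilobase, had 124423, 88527 and 102069 against 87605, 81051 and 79525 (difference of 0.33 on the log2 scale, SE 0.17). Its lowest mutant exceeded its highest wild type by a small margin, and the difference was 0.17 without length and GC content. These genes resemble each other, and values are uncertain where reads were shared. Of the 50-base words in the longest coding transcript, 33.6% for Acot1, 27.7% for Acot2, 19.5% for Acot3 and 4.88% for Acot4 occur in transcripts of other genes, against 0% for Acsm1 and Acox2.

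Outside that cluster, Acot11 and Acot7 were separated. Acot11, a thioesterase known from brown fat, had 7195, 6964 and 4782 in mutants against 4527, 2314 and 2915 in wild types (difference of 0.99 on the log2 scale, SE 0.37). Acot7, a cytosolic thioesterase of long chains, had 45555, 44234 and 55210 against 43624, 32954 and 29577 (difference of 0.46 on the log2 scale, SE 0.20). In both genes wild type 330 came closest to the mutants, and without length and GC content the differences were 0.79 and 0.21. Acot8, Acot9, Acot10 and Acot13 had overlapping groups with log2 differences of 0.51, -0.23, -0.63 and -0.24, which were 0.23, 0.02, -0.20 and -0.09 without length and GC content.

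Mutant and wild type values overlapped in each of 14 genes listed as the mitochondrial core. Over 14 genes of carnitine entry and the spiral (Cpt1a, Cpt2, Acadvl, Acadl, Acadm, Acads, Acad9, Hadha, Hadhb, Hadh, Echs1, Acaa2, Eci1 and Eci2), a list put together with the values known, the log2 differences ran from -0.64 to 0.28 with a median of -0.10, and -0.18 without length and GC content. None of the 14 was called in limma and 1 had an unadjusted p under 0.05, 0 had groups apart, and 10 lay within 0.25 of 0. The overlap depends on this choice of genes. Cpt1b and, outside the families, Slc25a20, Etfa and Hsd17b10 were not listed, and their mutants all stood below the wild types. Of the 26 members placed in mitochondria, 5 were apart and higher and 1 was apart and lower. Acadm, the medium-chain dehydrogenase, had 115741, 93494 and 122798 in mutants against 124349, 121993 and 164876 in wild types (difference of -0.30 on the log2 scale, SE 0.18). Hadh, the short-chain hydroxyacyl-CoA dehydrogenase and the most abundant gene of its family at 65778 per kilobase, had 112767, 105369 and 116303 against 127673, 130155 and 113796 (-0.15, SE 0.15). Both groups of each gene overlapped.

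Hadha and Hadhb encode the α and β subunits of the mitochondrial trifunctional protein and lie head to head on chromosome 5. Hadha had 153485, 172272 and 159639 in mutants against 161816, 170057 and 139161 in wild types (difference of 0.05 on the log2 scale, SE 0.16). Hadhb had 18302, 19000 and 20488 against 19874, 41538 and 32537 (-0.64, SE 0.25, limma adjusted p = 0.247), and was at -0.41 without length and GC content. Its wild type 330 lay among the mutants, and 62.4% of its 50-base words occur in transcripts of other genes, so its value is uncertain. Acaa2, the mitochondrial thiolase, had a difference on the log2 scale of -0.07 (SE 0.21). Echdc1, which decarboxylates ethylmalonyl-CoA in the cytosol, was apart and lower, with 13058, 16802 and 14463 in mutants against 17513, 28510 and 23285 in wild types (-0.62, SE 0.23, limma adjusted p = 0.240), and it was at -0.23 without length and GC content (limma adjusted p = 0.565).

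Of the 9 Acad genes, Acad10 alone had groups apart. It had 15607, 12305 and 13552 in mutants against 11461, 5939 and 3035 in wild types 330, 331 and 337, a difference on the log2 scale of 1.22 (SE 0.40, limma adjusted p = 0.231). Wild type 330 was near the mutants, and the gene shares 20.4% of its 50-base words with other transcripts, chiefly Acad12. In 7 of the 9 the difference lay within 0.25 of 0. Ech1, a dienoyl-CoA isomerase of peroxisomes and mitochondria, had 64466, 74806 and 63413 in mutants against 57514, 45624 and 41706 in wild types (0.49, SE 0.18, limma adjusted p = 0.240).

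**Figure D3:**
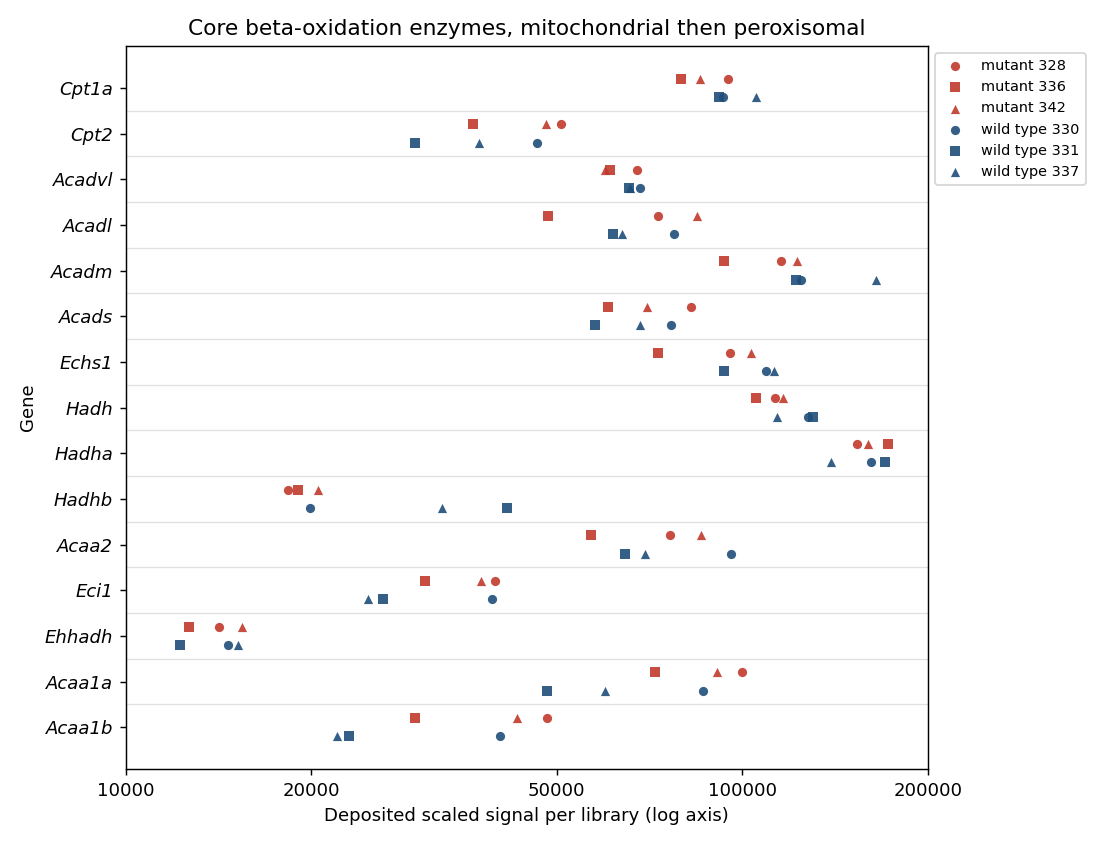
Scaled signal in each library (horizontal log axis) for 12 mitochondrial enzymes from Cpt1a to Eci1 and 3 peroxisomal enzymes from Ehhadh to Acaa1b, mutants in red (upper row) and wild types in blue (lower row). In each of these 15 genes the groups overlap, and wild types 331 and 337 of Hadhb stand to the right of the mutants while wild type 330 is among them.

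In the peroxisomal spiral, Ehhadh and the thiolase genes overlapped as well. Ehhadh, a bifunctional enzyme and a textbook PPARα target, had 14158, 12691 and 15430 in mutants against 14636, 12229 and 15215 in wild types, a difference on the log2 scale of 0.01 (SE 0.21). The peroxisomal thiolase gene Acaa1b had 48175, 29410 and 43080 against 40399, 23026 and 21992 (0.53, SE 0.27), and Acaa1a a difference of 0.47 (SE 0.22). Without length and GC content these were 0.16 and 0.07. Wild type 330 was high for both, and the thiolase genes share 34.0% and 35.5% of their 50-base words with other transcripts, so they cannot be read apart with certainty. Over 8 peroxisomal oxidation genes (Acox2, Acox3, Ehhadh, Acaa1a, Acaa1b, Ech1, Eci2 and Eci3), likewise listed with the values known, the median was 0.48, with 6 positive, and 0.17 without length and GC content.

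Of the long-chain synthetases 3 of 4 had negative differences, and 2 of 4 without length and GC content. Acsl3, an enzyme of the endoplasmic reticulum and lipid droplets, had 33852, 40149 and 39728 in mutants against 52566, 58279 and 70390 in wild types, with the groups apart. The log2 difference was -0.67 (SE 0.18, limma adjusted p = 0.231), or -0.36 without length and GC content (limma adjusted p = 0.327). Acsl1, which feeds long chains to oxidation and storage, had 26767, 28733 and 23902 against 35711, 33063 and 39992 (-0.45, SE 0.18, limma adjusted p = 0.245), and -0.42 without length and GC content. Acsl4, which favours arachidonic acid, was at -0.46 (SE 0.26) and Acsl5 at 0.01 (SE 0.18), both with overlapping groups, and without length and GC content they were at 0.05 and 0.11. In limma 0 of 4 passed, with 2 at an unadjusted p under 0.05.

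Among the carnitine palmitoyltransferases, the isoforms differed in their values. Cpt1b, the isoform typical of muscle, had 8780, 8941 and 7225 in mutants against 13516, 10356 and 15132 in wild types, apart and lower. Its log2 difference was -0.63 (SE 0.24, limma adjusted p = 0.243), and -0.84 without length and GC content (limma adjusted p = 0.183). A predicted gene model contains 93.0% of its 50-base words, which leaves its value uncertain. Cpt1a, the form typical of liver and kidney and the most abundant Cpt gene at 21221 per kilobase, had 94877, 79536 and 85267 against 92908, 91776 and 105311 (-0.16, SE 0.16). Cpt2 was at 0.27 (SE 0.21) and Cpt1c, a form of neurons, at 0.06 (SE 0.23).

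Of the Abcd transporters, Abcd4, which moves cobalamin out of lysosomes, was apart and higher, with 24289, 22924 and 24439 in mutants against 21983, 13943 and 15495 in wild types (difference of 0.51 on the log2 scale, SE 0.21, limma adjusted p = 0.253), and at 0.22 without length and GC content. Abcd2, a peroxisomal carrier of very long-chain acyl-CoA, had 3495, 6824 and 5335 against 5279, 13447 and 14185 (-0.99, SE 0.41, limma adjusted p = 0.249), and was at -0.60 in that fit. Wild type 330 lay within the mutant range for Abcd2. Abcd3, which carries branched and long acyl-CoA into peroxisomes, had a mean signal of 17164 per kilobase and a difference of -0.21 (SE 0.17), with overlapping groups.

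None of the 14 peroxins passed in limma, and 2 higher and 1 lower had an unadjusted p under 0.05. Pex16, which inserts peroxisomal membrane proteins, had 18299, 13737 and 13666 in mutants against 12784, 6736 and 7106 in wild types, a difference on the log2 scale of 0.83 (SE 0.29, limma adjusted p = 0.233) that was 0.44 without length and GC content. Pex14, the docking factor for matrix protein import, had 39723, 36326 and 34811 against 34056, 20902 and 29861 (0.41, SE 0.21), and 0.03 without length and GC content. Pex19, the membrane protein chaperone and most abundant peroxin at 26769 per kilobase, had overlapping groups (0.35, SE 0.19). Pex3, the partner of Pex19 at the membrane, had 14105, 13381 and 16701 in mutants against 16058, 27562 and 33638 in wild types (-0.75, SE 0.27), and -0.40 without length and GC content, with wild type 330 below mutant 342. Across the 14 the log2 differences ran from -0.75 to 0.83 with a median of 0.29, which was 0.08 without length and GC content.

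The composition of the transcripts moved with these differences. Across all 11518 annotated genes, the log2 difference between mutants and wild types had a Pearson correlation of 0.62 with GC content, and across the 65 members other than Acsm3 one of 0.50 (0.16 with Acsm3). Genes share libraries and are not replicates, so no p is given. The excess of wild type 330 over wild types 331 and 337 had a correlation of 0.68 with GC content over all genes and 0.69 over those 65. The median GC content was 53.7% in the 15 genes that were apart and higher, 46.1% in the 4 that were lower and 49.9% in the other 47. After removal of length and GC content, all 19 separated genes kept their sign. The median of the 15 went from 0.79 to 0.44 and that of the 4 from -0.63 to -0.39. In that fit Acsm1, Acox2 and Acsm2 passed in limma, 3 of 66 where 0.417% of all genes did.

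**Figure D4:**
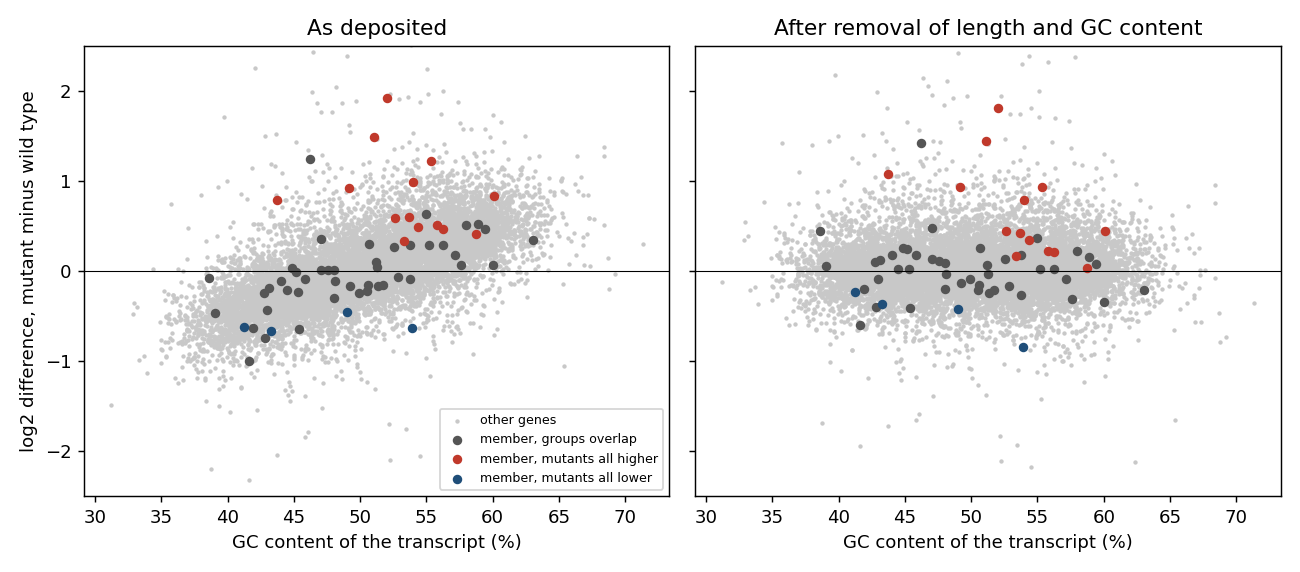
Log2 difference, mutant minus wild type (vertical axis), against GC content of the transcript in percent (horizontal axis), for all annotated genes (grey) and for the members other than Acsm3 and 2 not drawn, before (left) and after (right) removal of length and GC content; a few genes lie beyond the vertical axis. The slope of the left panel is removed on the right by construction, and there Acox2 at 1.81, Acsm1 at 1.45 and Acsm2 at 1.08 remain among the higher members.

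Genes of the same pathways outside these families were examined through 7 lists. The share with an unadjusted limma p under 0.05 was 42.9% of the uptake and lipid droplet list, 29.4% of the PPAR list and 19.0% or less of the other 5, where 19% of all genes passed. Among 31 peroxisomal enzymes and membrane proteins with a value, 0 passed in limma and 4 had an unadjusted p under 0.05, all higher. That is 12.9% of the list, where 10.5% of all genes were higher and 19% passed in either direction. Hacl1, the lyase of α-oxidation, had 62030, 34591 and 51988 in mutants against 24555, 24689 and 20829 in wild types (difference of 1.05 on the log2 scale, SE 0.23, limma adjusted p = 0.125). Tysnd1, the protease that processes peroxisomal enzymes, was at 0.89 (SE 0.30), Pipox, which oxidizes pipecolic acid and sarcosine, at 0.57 (SE 0.25) and Hao2, a hydroxyacid oxidase, at 0.52 (SE 0.21). The list's median was 0.15.

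Among 21 other mitochondrial oxidation genes 0 passed in limma, with 1 higher and 3 lower at an unadjusted p under 0.05 and a median of -0.01. Etfa, a subunit of the flavoprotein that takes electrons from the Acad enzymes, had 25093, 19324 and 34056 in mutants against 38673, 47356 and 69179 in wild types (-0.98, SE 0.26, limma adjusted p = 0.217). Acss1, the mitochondrial acetyl-CoA synthetase, was at -0.76 (SE 0.28) and Hsd17b10 at -0.46 (SE 0.19), while Pccb, a subunit of propionyl-CoA carboxylase, was at 0.42 (SE 0.19). Of 6 ketone body genes Oxct1, the enzyme that uses ketone bodies, was apart and lower, at 188387 in mutants and 280128 in wild types by group mean (-0.57, SE 0.16, limma adjusted p = 0.231). Of 8 carnitine and acyl carrier genes Acbd5, a peroxisomal acyl-CoA binding protein, was at -0.59 (SE 0.25).

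For uptake and lipid droplets, 0 of 14 passed in limma, with 4 higher and 2 lower at an unadjusted p under 0.05. Slc27a2, an acyl-CoA synthetase and fatty acid transporter of the proximal tubule, had 162485, 94652 and 157095 in mutants against 69970, 86694 and 87760 in wild types, which do not overlap (0.73, SE 0.22, limma adjusted p = 0.231). Pnpla2, the first triglyceride lipase of lipid droplets, was at 0.77 (SE 0.31), whereas the lipoprotein lipase gene Lpl was at -1.14 (SE 0.28) and Fabp4 at -0.71 (SE 0.23). Of 20 fatty acid and sterol synthesis genes 0 passed in limma and 1, Insig1, had an unadjusted p under 0.05 (-0.48, SE 0.20).

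Of 17 PPAR receptors, partners and targets 0 passed in limma, with 3 higher and 2 lower at an unadjusted p under 0.05. The coactivator gene Ppargc1a had 18311, 25372 and 16985 in mutants against 27174, 31423 and 39920 in wild types, apart and lower (-0.70, SE 0.22, limma adjusted p = 0.231). Ppard was at 0.67 (SE 0.25), Cyp4a10, a fatty acid hydroxylase and PPARα target, at 0.998 (SE 0.42) and Esrrg at -0.47 (SE 0.21). Ppara itself had 9488, 13780 and 8394 against 11079, 14755 and 21972 (-0.57, SE 0.29), with overlapping groups, and Hnf4a was at 0.20 (SE 0.17). These last genes were named after their values were seen.

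Levels of other cell types' genes differed between the same libraries. Of 20 proximal tubule markers 19 had a value, 0 passed in limma and 16 lay above 0. At an unadjusted limma p under 0.05 there were 8 of them, all higher, or 42.1%, where 10.5% of all genes were higher. Their summed signal ran from 1869610 to 2844928 in mutants and from 1574788 to 2005322 in wild types, which overlap. The summed signal of 10 thick ascending limb markers ran from 444368 to 525414 in mutants and from 660217 to 708793 in wild types. Kcnj1, the apical potassium channel of that segment, was past the threshold as lower in limma (log2 difference -1.24, adjusted p = 0.0163). Of these 10 markers 4 lay above 0 and 6 below. At an unadjusted limma p under 0.05, 1 was higher and 5 were lower, against 10.5% and 8.51% of all genes. The summed signal of 7 macrophage markers ran from 99065 to 104654 in mutants and from 61000 to 62079 in wild types. Of 10 nephron progenitor markers, with sums of 409478 to 462586 and 460385 to 537781, Cited1 and Tmem100 passed as lower in limma, where 0.0864% of all genes did. Of these 10 markers 3 lay above 0 and 7 below, and in Meox1 all mutants stood above all wild types (0.23, SE 0.20). Of 10 collecting duct and ureteric bud markers 0 passed (sums 439523 to 587173 and 461700 to 586255). At an unadjusted limma p under 0.05 there were 2 of them, or 20.0%, against 19% of all genes. The part of these cell types in the differences described above was not tested. In whole kidneys fewer cells of a type and less RNA per cell cannot be told apart. Of the defining genes of adipocytes (Fabp4 of 10), hepatocytes (Afp of 12), skeletal muscle (Actn3 of 8) and adrenal cortex (Fdx1 of 10), only the 1 named gene in each list had a row in the table. Of these, Afp passed as lower in limma (-1.79 on the log2 scale, adjusted p = 0.0209).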

How the data were processed

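RNA was measured in 6 mouse kidneys, 3 SRM deletion mutants and 3 wild types. Libraries for Ion Torrent sequencing were made, per the labels' protocols, out of poly(A) RNA selected from 4 to 5 µg total RNA. The deposited signal is in whole numbers with almost the same sum in each library, hence scaled. The submitters' processing notes name mm10 and bedtools. Aligner, annotation, filtering and scaling method: not given in the sources used here; the lowest mean signal of any gene was 3146. Per gene the authors' table adds a p-value, the ratio between group means, and log2 values of ratio and means.

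limma 3.58.1 in R 4.3.3, with a trend on mean level, was fitted to log2(signal + 1) of all 11578 genes and tested on simulated data; Benjamini-Hochberg adjustment covered all of them. The members and lists were chosen with earlier results of these data known. Named genes are those past the threshold or with groups apart, and the most abundant (per kilobase) and most different of each family. Ehhadh, Hadha and genes given by a difference alone complete the families; individual values of 2 members are not reported here, though counts over all 66 include them. Genes were matched to GENCODE M21 (GRCm38, the assembly of mm10) for coordinates, length and GC content, 11518 in number, and promoters were taken from RefSeq. Alternatives were another pseudocount, no trend, quantile normalization, a minimum mean of 10000, spacing class as covariate, array weights, a threshold of 0.1, the deposited p-values and each library left out. Removal of length and GC content, by smooth curves per library, was added after the data were seen.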

Additional observations from a re-analysis of the deposited data

How the results depend on the processing

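The numbers of members called, 2 higher and 0 lower, depended on the fit. Higher calls numbered 0 without the trend on mean level, 1 with a minimum mean of 10000, 20 with array weights and 0 with adjusted deposited p-values; with array weights 7 were called lower. With 1 library left out, higher calls ran from 0 to 18 and lower calls from 0 to 7. The upper ends, 18 and 7, came without wild type 330; higher calls were 1 without wild type 337 and 0 without wild type 331 or any 1 mutant. Array weights gave wild type 330 the lowest weight, 0.298, and mutant 328 the highest, 5.33, with the other 4 between 0.723 and 1.19, and called 30.2% of all genes. The pseudocount of 1000, quantile normalization, spacing class and a threshold of 0.1 left both counts at 2 and 0, and removal of length and GC content gave 3 and 0.

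Signs turned for several members, among them Abcd3 (-0.21) and Acaa2 (-0.07). Abcd3 went to 0.0268 after removal of length and GC content. Acaa2 went to 0.10 with array weights and ran from -0.20 to 0.10 with 1 library left out. Over the alternative fits Acsl4 ran from -0.74 to 0.05, Acot13 from -0.53 to 0.08, Cpt1c from -0.31 to 0.18 and Hadha from -0.04 to 0.11. The cause was not tested for any of these changes.

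No paired analysis was possible because mutants and wild types share no replicate number. Depth is unknown, so counting error could not be separated from the spread between kidneys.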
